A study of Arabidopsis thaliana with 4 samples.

Results

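Cytochrome P450 genes were compared between seedlings of 4 Arabidopsis thaliana genotypes. They were chosen by name, as genes called CYP followed by digits, 1 or 2 letters and digits, with a mean above 0 in all 3 deposited tables. Of the 34262 genes in each table, 229 had such a name, 208 of them were above 0 in all 3 tables, and 201 remained after CYP71A12, CYP71A13, CYP79B2, CYP79B3, CYP79F1, CYP79F2 and CYP83A1 were left out by name. Another 7 were above 0 in only some tables and 14 were at 0 in all of them. The rule itself uses no measured level or difference other than a mean above 0, but it was set with earlier results of these data known.

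The genotypes carried the labels hda6, ldl1/2, hda6/ldl1/2 and, for the control, WT, all in the Col-0 ecotype and all harvested as seedlings at 14 days of age, after growth at 22 °C in long days. HDA6 encodes a histone deacetylase, and LDL1 and LDL2 encode histone demethylases related to human LSD1. No source used here names the alleles, and GEO lists 1 sample for each genotype. Each of the 3 comparisons uses the same WT, so a deviation of WT would enter all of them.

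Plant cytochrome P450 enzymes are haem proteins, most of them held on the endoplasmic reticulum, that use electrons from a reductase to insert oxygen into small molecules. Single families act in hormone synthesis and breakdown, in sterols, carotenoids, lignin, cutin and suberin, and in defence compounds such as camalexin, glucosinolates and terpenes. Many of them lie beside close relatives, as copies that arose by tandem duplication.

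In the authors' deposited tables LDL1 and LDL2 fell in ldl1/2, by 0.79 and 1.17 on the log2 scale, but in seedlings labelled hda6/ldl1/2 they stood at 0.05 and -0.32 (FDR 0.585 for LDL2). HDA6 was higher in hda6 (0.53) and in seedlings labelled hda6/ldl1/2 (0.59), per the authors' deposited tables. A transcript level does not show loss of function, but no gene that hda6 or hda6/ldl1/2 is named for was called lower there, so the groups are called by their labels throughout. Of 15 root marker genes, 0 changed in hda6, 1 fell in ldl1/2 and 7 fell in seedlings labelled hda6/ldl1/2, among them CASP1 and PER64, and their summed level was 120 RPKM in WT, 113.4 in hda6, 117.1 in ldl1/2 and 63.39 in seedlings labelled hda6/ldl1/2. RPKM stands for reads relative to the exon length and the size of the library. Of 5 mesophyll genes, 4 rose in hda6 and in seedlings labelled hda6/ldl1/2 and the same 4, all light-harvesting genes, fell in ldl1/2, by the deposited FDR. Of 8 guard cell genes, EPF1 and TMM rose in seedlings labelled hda6/ldl1/2 and none changed in hda6 or ldl1/2. Their part in the results below was not tested, and in bulk RNA of seedlings fewer cells of a type and less RNA per cell cannot be told apart.

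The sequences below show the bases before the annotated start of members with large summed fold changes over the 3 comparisons, and of a close relative of some of them. CYP98A8, with the largest sum, has no window, because another annotated gene reaches its start. They were read from the RefSeq genome TAIR10.1, 5′ to 3′ on the gene's strand, up to 250 bases or to the neighbouring gene. Capitals mark the W-box core TTGAC on either strand (GTCAA when read from the other), the element bound by WRKY factors. Neither a G-box (CACGTG) nor a TGA core (TGACG) was found in these windows on either strand. CYP82G1 (chr3:9169302-9169551, minus strand) and CYP71B15 (chr3:9887667-9887916, plus strand), whose fold changes in hda6 were the lowest among members at 1 RPKM or more, hold no W-box core.
CYP82G1: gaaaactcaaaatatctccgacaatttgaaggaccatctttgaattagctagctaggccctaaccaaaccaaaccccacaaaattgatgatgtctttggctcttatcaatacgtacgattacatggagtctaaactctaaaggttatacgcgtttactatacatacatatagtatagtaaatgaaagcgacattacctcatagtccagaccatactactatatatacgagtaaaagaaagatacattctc
CYP71B15: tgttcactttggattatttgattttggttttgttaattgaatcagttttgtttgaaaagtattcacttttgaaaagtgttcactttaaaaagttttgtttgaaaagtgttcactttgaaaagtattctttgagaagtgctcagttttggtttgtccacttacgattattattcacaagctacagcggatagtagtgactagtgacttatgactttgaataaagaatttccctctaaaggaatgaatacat

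CYP76C2 (chr2:18781974-18782223, minus strand) holds 2 W-box cores and its neighbour CYP76C1 (chr2:18778677-18778926, minus strand) none.
CYP76C2: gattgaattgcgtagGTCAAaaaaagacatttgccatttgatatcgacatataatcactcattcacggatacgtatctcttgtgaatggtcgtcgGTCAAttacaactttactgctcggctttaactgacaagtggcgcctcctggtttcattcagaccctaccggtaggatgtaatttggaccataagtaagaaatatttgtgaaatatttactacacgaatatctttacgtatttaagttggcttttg
CYP76C1: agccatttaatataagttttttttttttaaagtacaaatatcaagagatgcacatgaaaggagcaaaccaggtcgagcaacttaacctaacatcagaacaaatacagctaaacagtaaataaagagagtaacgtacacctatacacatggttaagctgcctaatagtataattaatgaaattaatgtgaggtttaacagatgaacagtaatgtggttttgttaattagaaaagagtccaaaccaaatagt

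CYP72A10 (chr3:4919703-4919756, plus strand) starts only 54 bases after the end of CYP72A9, and those 54 bases hold 1 W-box core. The 150 bases between CYP72A8 and CYP72A9 (chr3:4917177-4917326, plus strand) hold none. Both CYP72A9 and CYP72A10 rose in hda6.
CYP72A10: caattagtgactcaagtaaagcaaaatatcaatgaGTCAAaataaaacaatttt
CYP72A9: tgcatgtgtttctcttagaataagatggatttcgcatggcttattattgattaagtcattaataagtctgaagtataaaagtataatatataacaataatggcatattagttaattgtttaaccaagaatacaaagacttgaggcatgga

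CYP76C6 (chr1:12224109-12224358, minus strand), which rose in hda6, holds 1 W-box core.
CYP76C6: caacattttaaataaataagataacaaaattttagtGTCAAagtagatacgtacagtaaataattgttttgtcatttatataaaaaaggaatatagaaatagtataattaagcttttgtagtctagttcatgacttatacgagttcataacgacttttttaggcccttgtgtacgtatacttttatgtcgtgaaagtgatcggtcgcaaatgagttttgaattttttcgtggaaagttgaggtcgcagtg

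CYP710A1 (chr2:14541618-14541867, minus strand) and CYP710A2 (chr2:14537557-14537806, minus strand) were added after their values were seen, because these adjacent sterol genes moved in opposite directions. CYP710A1 holds 2 W-box cores in tandem and CYP710A2 none.
CYP710A1: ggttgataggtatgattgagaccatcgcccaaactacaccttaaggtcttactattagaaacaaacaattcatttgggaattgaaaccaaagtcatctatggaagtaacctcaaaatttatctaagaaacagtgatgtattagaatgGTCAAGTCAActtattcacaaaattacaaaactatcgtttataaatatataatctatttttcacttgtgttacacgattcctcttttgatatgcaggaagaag
CYP710A2: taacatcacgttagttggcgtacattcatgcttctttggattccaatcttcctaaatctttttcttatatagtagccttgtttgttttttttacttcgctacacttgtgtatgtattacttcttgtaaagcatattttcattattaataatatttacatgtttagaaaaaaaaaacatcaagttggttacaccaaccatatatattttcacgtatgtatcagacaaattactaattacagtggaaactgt

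Over all members, 99 of 201 (49.3%) were counted with a W-box core, against 44.7% of 33938 windows over all genes. The 201 include CYP98A8, for which no window is printed. The windows counted may therefore be cut otherwise than those printed, and the shares are a description only. A G-box was found in 6.47% of members and 5.72% of all genes, and a TGA core in 15.9% and 18.1%. A match describes the letters of the window and not a bound site.

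P450 genes were spread over a wide range of levels. In WT, 54 members stood at 10 RPKM or more, 73 at 1 to 10 RPKM and 74 under 1 RPKM, of which 36 were under 0.1 RPKM. A group of 64 members stayed under 1 RPKM in all 4 genotypes. The levels given for each genotype were rebuilt here from the larger mean and the fold change of the authors' deposited tables, and carry no error of their own.

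The highest members included genes of glucosinolates, carotenoids and phenylpropanoids. CYP81F4, which modifies indole glucosinolates, stood at 177 RPKM in WT, 169.9 in hda6, 250.5 in ldl1/2 and 132 in seedlings labelled hda6/ldl1/2. CYP83B1, which starts the indole glucosinolate core, stood at 135, 129.8, 102 and 136 RPKM in the same order. CYP706A1 stood at 117, 119.7, 107 and 115 RPKM, and the carotene hydroxylase CYP97A3 at 73.0, 82.6, 78.2 and 78.0 RPKM. Of these 4 genes only CYP81F4 changed past the deposited FDR, in ldl1/2.

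By the deposited FDR under 0.05, 16 members rose in hda6 and 16 fell, 12 rose in ldl1/2 and 12 fell, and 25 rose in seedlings labelled hda6/ldl1/2 and 26 fell. Among all 24905 genes with a fold change, 4.05% rose and 3.58% fell in hda6, 3.75% rose and 3.20% fell in ldl1/2, and 8.61% rose and 6.40% fell in seedlings labelled hda6/ldl1/2. The members' shares were 7.96% each way, 5.97% each way, and 12.4% up and 12.9% down, above those of all genes in all 6 cases. The difference between shares was not tested, and neighbouring P450 genes are not independent. Among genes at 1 RPKM or more in the larger mean, 15 of 132 members rose and 14 fell in hda6, against 4.38% and 4.31% of all such genes. In ldl1/2 12 of 132 rose and 11 fell, against 4.41% and 4.09%, and in seedlings labelled hda6/ldl1/2 22 of 131 rose and 23 fell, against 9.59% and 7.82%. A gene can pass this filter through 1 group alone: 3 of the 15 and 2 of the 14 were under 1 RPKM in hda6 or in WT, as were 5 of the 11 that fell in ldl1/2, and 2 of the 22 and 7 of the 23 for seedlings labelled hda6/ldl1/2 or WT. These counts are therefore a description only.

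**Figure D1:**
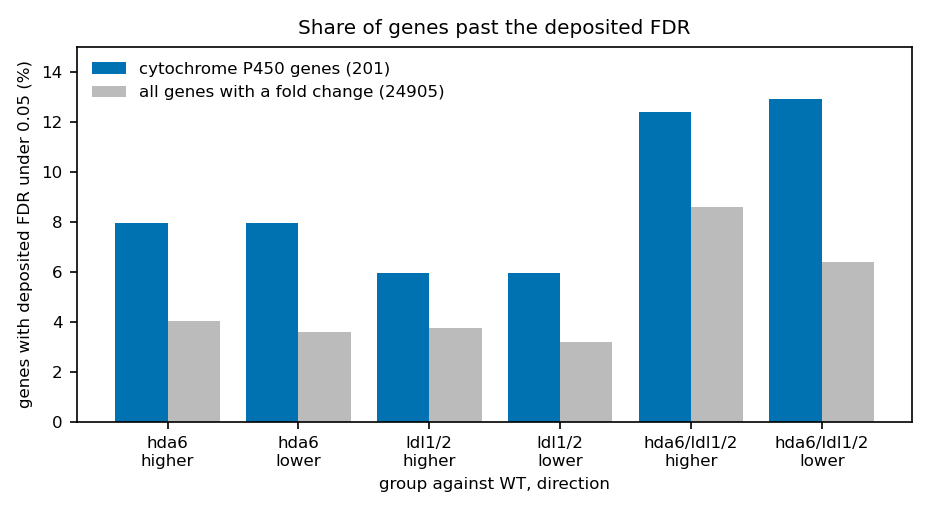
Share of genes past the deposited FDR of 0.05, in percent, for the 201 P450 genes (blue) and all 24905 genes with a fold change (grey), by group and direction against WT. The P450 bars are the taller in all 6 pairs, at 7.96% against 4.05% for genes higher in hda6 and 12.9% against 6.40% for genes lower in seedlings labelled hda6/ldl1/2.

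A rule of size asked for a log2 fold change at or beyond 1 and at least 1 RPKM. In hda6 7 of 132 members were higher (5.3%) and 5 lower (3.79%), against 2.01% and 2.00% of all such genes. In ldl1/2 1 of 132 was higher (0.758%) and 8 lower (6.06%), against 1.70% and 1.46%. In seedlings labelled hda6/ldl1/2 4 of 131 were higher (3.05%) and 10 lower (7.63%), against 3.39% and 2.64%. The difference between these shares was not tested. The level is the larger of the 2 group means, and 4 of the 7 and 2 of the 5 passed it through 1 group only in hda6, 5 of the 8 lower ones in ldl1/2, and 1 of the 4 and 6 of the 10 in seedlings labelled hda6/ldl1/2. With a mean over the 4 genotypes of at least 1 RPKM instead, 124 members were left. Of these 124, 3 were higher and 4 lower in hda6, against 1.64% and 1.74% of all such genes. In ldl1/2 1 was higher and 4 lower, against 1.57% and 1.39%. In seedlings labelled hda6/ldl1/2 3 were higher and 6 lower, against 2.59% and 2.31%. Among members at 1 RPKM or more in the larger of the 2 group means, the median log2 fold change was 0.07 in hda6 and 0.05 in ldl1/2. It was 0.04 in seedlings labelled hda6/ldl1/2, beside -0.01 over all such genes in each comparison. The member medians lay within 0.1 of those of all genes.

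Of the 201 members, 74 (36.8%) were called in at least 1 comparison, against 20.7% of all genes, and 127 in none. In all 3 comparisons, which share WT, 6 members (2.99%) were called, against 1.27% of all genes, and 3 (1.49%) were called in opposite directions in hda6 and ldl1/2, against 0.719%. CYP71B15, CYP76C2 and CYP82G1 were called lower and CYP708A3 higher in each of the 3, and CYP71B19, CYP76C1 and CYP702A5 were those called in opposite directions. These shares were not tested. No group was tested against another except WT, so a call in one and not in the next does not show that they differ.

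**Figure D2:**
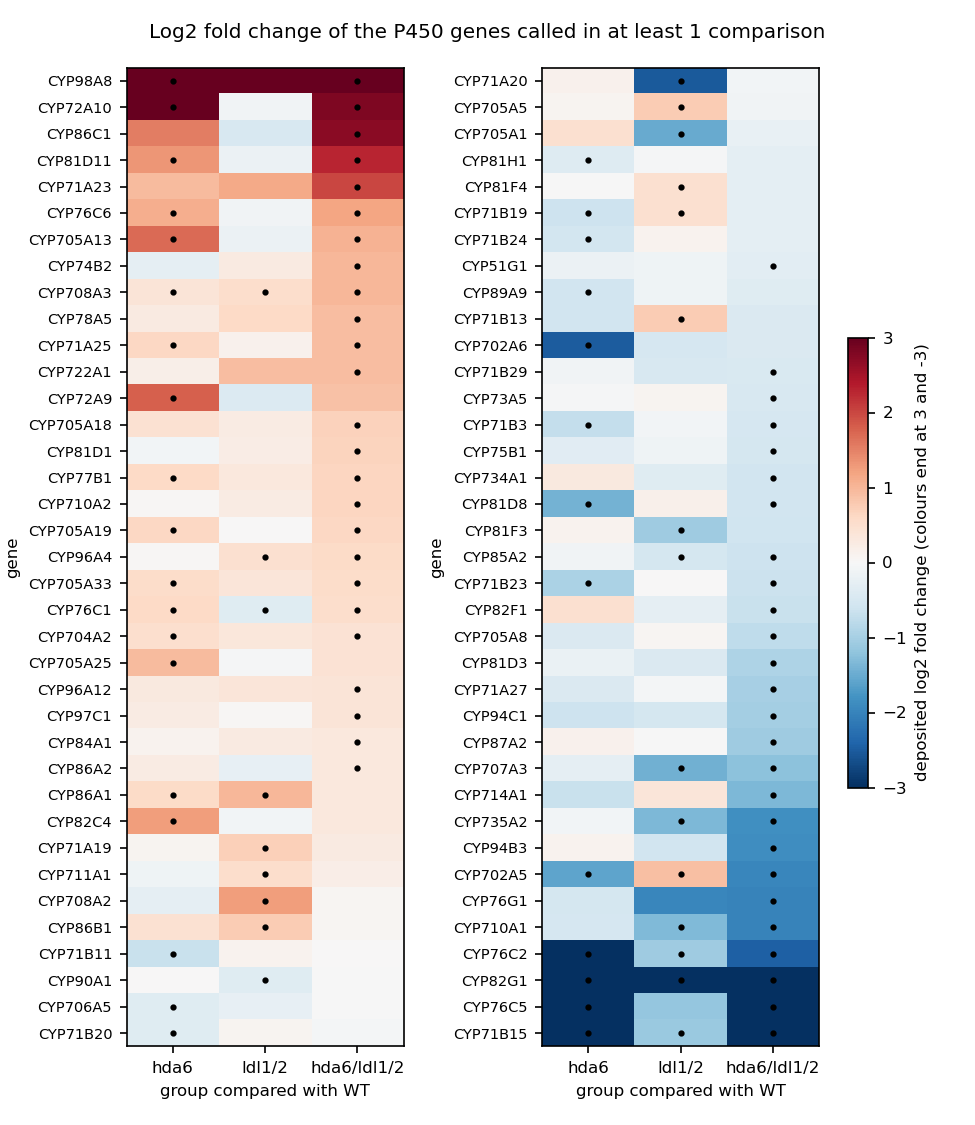
Deposited log2 fold change against WT of the 74 P450 genes past the deposited FDR of 0.05 in at least 1 comparison, ordered by the value in seedlings labelled hda6/ldl1/2. Red is higher than WT and blue lower, colours end at 3 and -3, and a black dot marks an FDR under 0.05. CYP702A5, CYP71B19 and CYP76C1 carry a black dot in both hda6 and ldl1/2 with opposite colours.

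Among members at 1 RPKM or more, the defence genes CYP71B15 and CYP82G1 had the lowest fold changes in hda6 and in seedlings labelled hda6/ldl1/2. CYP71B15, known as PAD3, the enzyme of the last step of camalexin synthesis, stood at 23.9 RPKM in WT, 1.25 in hda6, 11.4 in ldl1/2 and 1.1 in seedlings labelled hda6/ldl1/2. All 3 groups were below WT, with ldl1/2 between WT and the others. In the authors' deposited tables its log2 fold changes were -4.20 (FDR listed as 0), -1.11 (FDR 0.00736) and -4.31 (FDR listed as 0). The p-value for ldl1/2 implies a standard error of 0.30, taken from a normal reference.

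CYP82G1 makes the volatile homoterpene TMTT from geranyllinalool, which is made by the terpene synthase GES. CYP82G1 stood at 1.71 RPKM in WT, 0.0760 in hda6, 0.0379 in ldl1/2 and 0.168 in seedlings labelled hda6/ldl1/2, the lowest of these from about 6 reads over the group. It fell by 4.44 (FDR 1.32e-09), 5.53 (FDR 3.05e-10) and 3.22 (FDR 2.16e-06) on the log2 scale, per the authors' deposited tables, with implied standard errors of 0.65, 0.79 and 0.59. GES stood at 7.08 RPKM in WT, 0.667 in ldl1/2, 0.0226 in hda6 and 0.00818 in seedlings labelled hda6/ldl1/2, the last 2 from about 6 and 2 reads, and fell in all 3 with an FDR listed as 0, per the authors' deposited tables. Both genes of the homoterpene route were thus below WT in all 3 groups.

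A pair of indole glucosinolate modifiers moved in opposite directions in ldl1/2. CYP81F4 rose in ldl1/2 by 0.47 on the log2 scale (FDR 0.00742), while its neighbour CYP81F3, which modifies the same compounds, fell there by 1.06 (FDR 0.0203), per the authors' deposited table. CYP81F3 stood at 1.41 RPKM in WT, 1.45 in hda6, 0.692 in ldl1/2 and 0.851 in seedlings labelled hda6/ldl1/2. Of the 11 members listed for indole and defence compounds, 1 rose in hda6 (CYP82C4, described below with coumarins) and 1 fell (CYP71B15). In ldl1/2 1 rose and 2 fell, and in seedlings labelled hda6/ldl1/2 1 fell. With so few genes nothing is read from these counts.

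CYP81D11, a gene induced by foreign chemicals and defence signals, had the highest log2 fold change among members at 5 RPKM or more in hda6 and in seedlings labelled hda6/ldl1/2. From 1 RPKM on, CYP72A10, CYP72A9 and CYP705A13 had higher values in hda6, and CYP72A10 in seedlings labelled hda6/ldl1/2. CYP81D11 stood at 6.24 RPKM in WT, 14.9 in hda6, 5.68 in ldl1/2 and 27.6 in seedlings labelled hda6/ldl1/2. Its log2 fold changes, per the authors' deposited tables, were 1.32 and 2.28 in hda6 and seedlings labelled hda6/ldl1/2, each with an FDR listed as 0, and -0.17 in ldl1/2 (FDR 0.861). CYP81D8 of the same subfamily went the other way, at 7.54 RPKM in WT, 2.72 in hda6, 8.52 in ldl1/2 and 4.61 in seedlings labelled hda6/ldl1/2. It fell in hda6 by 1.41 (FDR 1.13e-12) and in seedlings labelled hda6/ldl1/2 by 0.58 (FDR 0.0132), per the authors' deposited tables.

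CYP82C4 hydroxylates coumarins that roots release when iron is short. It stood at 0.731 RPKM in WT, 1.68 in hda6, 0.701 in ldl1/2 and 0.825 in seedlings labelled hda6/ldl1/2, and rose in hda6 alone by 1.26 (FDR 0.0171), per the authors' deposited table. Of 7 other coumarin and iron genes, the iron transporter IRT1 and the ferric reductase FRO2 rose in hda6, by 1.00 and 1.22, per the authors' deposited table. F6'H1, which opens the coumarin branch, fell there by 0.73 (FDR 0.00762) in the same authors' deposited table, so the genes of this list did not move one way. None of the 15 root markers changed in hda6, and the part of root markers in the result was not tested.

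Genes of the triterpene thalianol were highest in ldl1/2. CYP708A2 and CYP705A5 act after the thalianol synthase THAS1 in a root triterpene gene cluster. CYP708A2 stood at 19.0 RPKM in WT, 15.2 in hda6, 46.4 in ldl1/2 and 18.1 in seedlings labelled hda6/ldl1/2. CYP705A5 stood at 17.0, 17.1, 29.2 and 14.4 RPKM, and THAS1 at 11.4, 8.37, 38.9 and 12.5 RPKM, in the same order. All 3 rose in ldl1/2, per the authors' deposited table, by 1.25 (FDR 9.09e-13), 0.75 (FDR 0.00524) and 1.74 (FDR 5.72e-10), while none changed in hda6 or in seedlings labelled hda6/ldl1/2. The acyltransferase genes AT5G47980 and AT5G47950 stood at 0.73 and 0.08 in ldl1/2 and did not pass the FDR, per the authors' deposited table.

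Arabidiol genes fell in the same group. CYP705A1, which cleaves arabidiol, stood at 1.15 RPKM in WT, 1.53 in hda6, 0.413 in ldl1/2 and 0.894 in seedlings labelled hda6/ldl1/2, and fell in ldl1/2 by 1.51 (FDR 0.00242), per the authors' deposited table. The arabidiol synthase PEN1 fell by 1.01 in ldl1/2 and by 0.95 in seedlings labelled hda6/ldl1/2, per the authors' deposited tables. Of 12 members listed for triterpenes and volatile terpenes, 1 rose and 3 fell in hda6, 2 rose and 4 fell in ldl1/2, and 1 rose and 2 fell in seedlings labelled hda6/ldl1/2. Over all genes 4.05% rose and 3.58% fell in hda6, and 3.75% and 3.20% in ldl1/2. In seedlings labelled hda6/ldl1/2 8.61% rose and 6.40% fell. With so few members nothing is read from these counts.

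**Figure D3:**
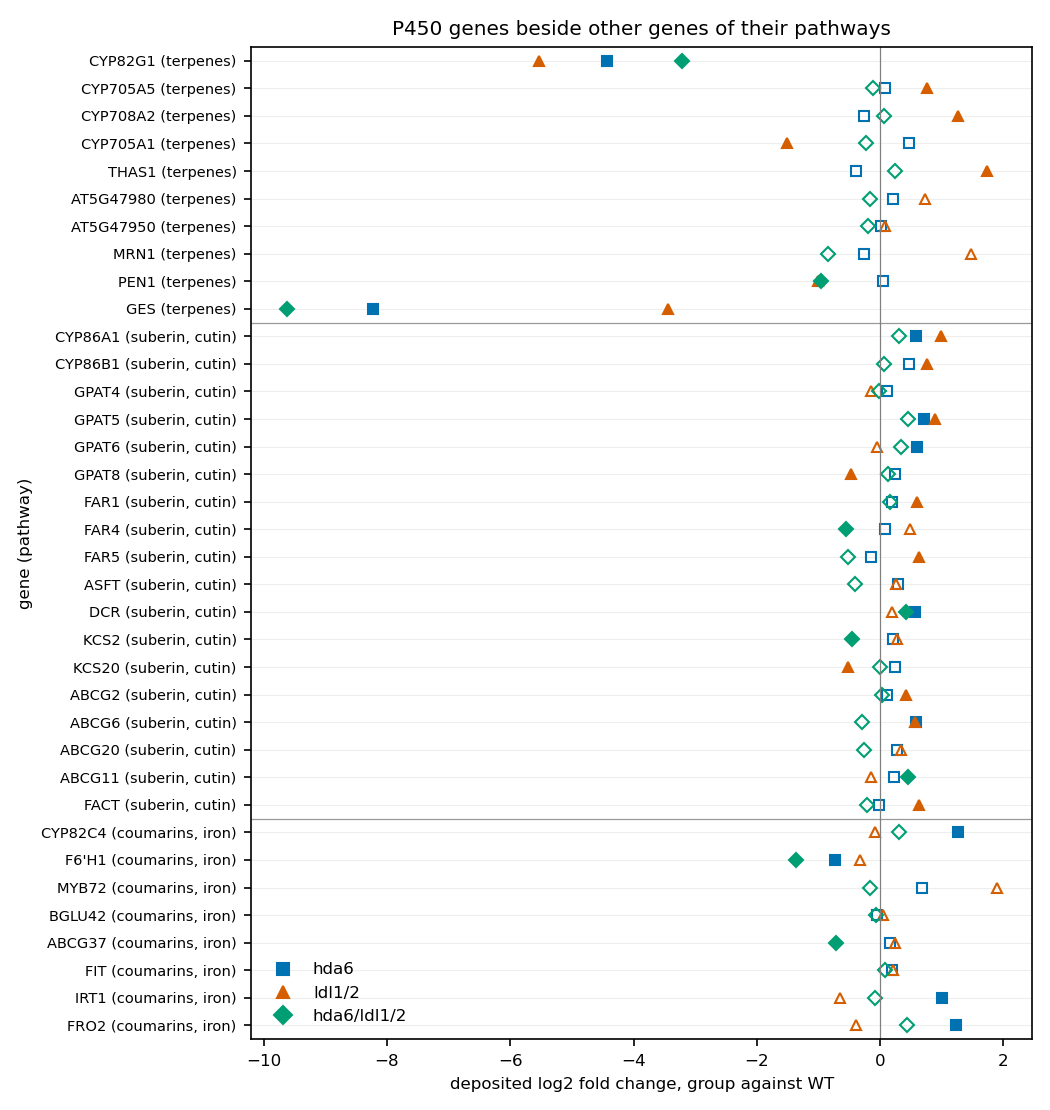
Deposited log2 fold change against WT (horizontal axis) of selected P450 genes and of every other listed pathway gene outside the P450 family. Symbols show hda6 (squares), ldl1/2 (triangles) and seedlings labelled hda6/ldl1/2 (diamonds), and filled symbols passed the deposited FDR of 0.05. GES and CYP82G1 lie far to the left in all 3 groups, and the triangles of THAS1 (1.74), CYP708A2 (1.25) and CYP705A5 (0.75) lie to the right.

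CYP76C genes, of a subfamily in which CYP76C1 oxidises the monoterpene alcohol linalool, split within 2 neighbouring pairs. CYP76C1 stood at 35.4 RPKM in WT, 51.6 in hda6, 28.1 in ldl1/2 and 46.2 in seedlings labelled hda6/ldl1/2, while CYP76C2 stood at 2.44, 0.252, 1.19 and 0.407 RPKM. In the authors' deposited tables CYP76C1 rose in hda6 by 0.60 (FDR 7.34e-06), fell in ldl1/2 by 0.36 (FDR 0.0307) and rose in seedlings labelled hda6/ldl1/2 by 0.52 (FDR 0.000125). CYP76C2 fell in all of them, by 3.22 (FDR 2.11e-14), 1.07 (FDR 0.0385) and 2.45 (FDR 1.64e-09), per the authors' deposited tables. These genes lie side by side on the minus strand of chromosome 2, with the 2 W-box cores shown above in the window of CYP76C2.

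The other pair lies on chromosome 1 in divergent orientation. CYP76C6 stood at 1.81 RPKM in WT, 3.69 in hda6, 1.71 in ldl1/2 and 3.75 in seedlings labelled hda6/ldl1/2, and CYP76C5 at 0.475, 0.0295, 0.216 and 0.0315 RPKM. CYP76C6 rose by 1.09 (FDR 8.02e-05) and 1.18 (FDR 6.96e-06) in hda6 and seedlings labelled hda6/ldl1/2, and CYP76C5 fell there by 3.95 (FDR 0.0104) and 3.78 (FDR 0.00886), per the authors' deposited tables. CYP76C5 rested on about 4 reads in hda6 and on about 5 in seedlings labelled hda6/ldl1/2, with implied standard errors of 1.11 and 1.1.

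Of 9 members listed for cutin, suberin and wax, the suberin genes CYP86A1 and CYP86B1 rose in ldl1/2 and the others did not change. Over all genes 3.75% rose in ldl1/2, and with 9 members nothing is read from this count. CYP86A1 hydroxylates fatty acids for root suberin and stood at 12.0 RPKM in WT, 17.3 in hda6, 24.4 in ldl1/2 and 13.6 in seedlings labelled hda6/ldl1/2. CYP86B1, which acts on longer chains, stood at 3.46, 4.59, 5.97 and 3.28 RPKM. CYP86A1 rose in hda6 by 0.58 (FDR 3.93e-05) and in ldl1/2 by 0.99 (FDR listed as 0), and CYP86B1 in ldl1/2 by 0.75 (FDR 0.000309), per the authors' deposited tables. Of 16 other suberin and cutin genes, 6 rose in ldl1/2 (GPAT5, FAR1, FAR5, FACT, ABCG2 and ABCG6) and GPAT8 and KCS20 fell by the deposited FDR. In hda6 4 of the 16 rose (GPAT5, GPAT6, DCR and ABCG6) and none fell. In seedlings labelled hda6/ldl1/2 DCR and ABCG11 rose, and FAR4 and KCS2 fell. Of the 15 root markers only 1, ESB1, fell in ldl1/2, and the part of root markers in the result was not tested. CYP86A2, which acts in leaf cutin, stood at 47.3 RPKM in WT and rose by 0.32 (FDR 0.0488) in seedlings labelled hda6/ldl1/2, per the authors' deposited table.

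Of 2 cytokinin members 1 changed. CYP735A2, which makes trans-zeatin cytokinins, stood at 1.35 RPKM in WT, 1.22 in hda6, 0.537 in ldl1/2 and 0.341 in seedlings labelled hda6/ldl1/2. It fell in ldl1/2 by 1.36 (FDR 0.0113) and in seedlings labelled hda6/ldl1/2 by 1.85 (FDR 9.25e-05), per the authors' deposited tables. It is a gene of the root, where 7 of 15 markers fell in seedlings labelled hda6/ldl1/2 and 1 in ldl1/2, and their part in the result was not tested.

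CYP707A3 breaks down abscisic acid by hydroxylation. It stood at 1.36 RPKM in WT, 1.09 in hda6, 0.510 in ldl1/2 and 0.527 in seedlings labelled hda6/ldl1/2, and fell in the last 2 by 1.45 (FDR 0.00153) and 1.24 (FDR 0.00573), per the authors' deposited tables. NCED3, which makes the precursor of abscisic acid, fell in the same groups by 1.68 and 1.47, per the authors' deposited tables. The other 3 abscisic acid hydroxylase genes did not pass the FDR, nor did ABA2 and AAO3 of the synthesis route, while NCED2 rose and ABA3 fell in seedlings labelled hda6/ldl1/2 by the deposited FDR. ABA1 rose in hda6 by 0.40 (FDR 0.0117) and in seedlings labelled hda6/ldl1/2 by 0.39 (FDR 0.00767), per the authors' deposited tables.

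Among 7 brassinosteroid members, CYP85A2, which makes brassinolide, stood at 7.34 RPKM in WT, 6.58 in hda6, 5.19 in ldl1/2 and 4.33 in seedlings labelled hda6/ldl1/2. It fell in ldl1/2 by 0.53 (FDR 0.00933) and in seedlings labelled hda6/ldl1/2 by 0.63 (FDR 0.000525), per the authors' deposited tables. CYP90A1, the CPD enzyme of the same route, fell in ldl1/2 by 0.36 (FDR 0.0323), and CYP734A1, which inactivates the hormone, fell in seedlings labelled hda6/ldl1/2 by 0.57 (FDR 0.0455), per the authors' deposited tables. The receptor gene BRI1 fell in both, by 0.36 and 0.35, per the authors' deposited tables, while 7 other synthesis and signalling genes did not pass the FDR.

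Of 5 jasmonate and oxylipin members, 2 fell and 1 rose in seedlings labelled hda6/ldl1/2 and none changed in hda6 or ldl1/2. With 5 members nothing is read from these counts, beside 6.40% fallen and 8.61% risen over all genes in seedlings labelled hda6/ldl1/2. CYP94B3 and CYP94C1 oxidise the active hormone JA-Ile, and stood at 0.658 and 1.25 RPKM in WT and at 0.166 and 0.559 RPKM there. They fell by 1.86 (FDR 0.00348) and 1.02 (FDR 0.0239), and CYP94B1 stood at 0.41 (FDR 0.370), per the authors' deposited table. CYP74B2, the hydroperoxide lyase that draws on the same lipids, stood at 4.45 RPKM in WT and 8.13 in seedlings labelled hda6/ldl1/2, a rise of 0.99 (FDR 0.00428), per the authors' deposited table. Of 11 jasmonate synthesis genes, LOX2, LOX3, AOC1 and AOC2 rose there and LOX4 and AOC3 fell, by the deposited FDR.

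Other hormone genes moved singly. CYP714A1, which inactivates gibberellin, stood at 1.24 RPKM in WT, 0.754 in hda6, 1.64 in ldl1/2 and 0.445 in seedlings labelled hda6/ldl1/2, where it fell by 1.35 (FDR 0.00125), per the authors' deposited table. CYP711A1, the MAX1 enzyme of strigolactone synthesis, stood at 10.1, 8.95, 14.8 and 10.6 RPKM and rose in ldl1/2 by 0.52 (FDR 0.000586), per the authors' deposited table. CYP78A5, the KLUH gene of organ growth, stood at 2.76, 3.19, 4.24 and 4.81 RPKM and rose in seedlings labelled hda6/ldl1/2 by 0.93 (FDR 0.000398), per the authors' deposited table.

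The sterol desaturase genes CYP710A1 and CYP710A2 are adjacent on chromosome 2 and differed. CYP710A3 and CYP710A4 of the same subfamily were under 1 RPKM in every group and did not pass the FDR. CYP710A1 stood at 6.56 RPKM in WT, 4.43 in hda6, 2.69 in ldl1/2 and 1.49 in seedlings labelled hda6/ldl1/2, so that all 3 groups were below WT. It fell in ldl1/2 by 1.32 (FDR 6.88e-11) and in seedlings labelled hda6/ldl1/2 by 2.00 (FDR listed as 0), and stood at -0.51 in hda6 (FDR 0.0649), per the authors' deposited tables. CYP710A2 stood at 20.8, 20.5, 25.4 and 29.8 RPKM and rose in seedlings labelled hda6/ldl1/2 by 0.65 (FDR 6.86e-07), per the authors' deposited table. CYP51G1, the sterol demethylase earlier in the route, fell there by 0.32 (FDR 0.0456), per the authors' deposited table.

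Of 7 phenylpropanoid and flavonoid members, 2 rose and 2 fell in seedlings labelled hda6/ldl1/2, and CYP98A8 alone rose in hda6. Over all genes 8.61% rose and 6.40% fell in seedlings labelled hda6/ldl1/2, and 4.05% rose in hda6. With 7 members nothing is read from these counts. CYP73A5, the cinnamate hydroxylase that feeds the whole route, stood at 85.3 RPKM in WT, 79.4 in hda6, 91.5 in ldl1/2 and 56.2 in seedlings labelled hda6/ldl1/2. It fell there by 0.47 (FDR 0.00463), beside falls of 0.52 in PAL1 and 0.36 in PAL2, the enzymes just before it, per the authors' deposited table. CYP75B1 of flavonoid synthesis fell by 0.53 (FDR 0.0441) and CYP84A1 of syringyl lignin rose by 0.33 (FDR 0.0379), per the authors' deposited table. Of 12 lignin partners, PAL1 and PAL2 alone changed there by the deposited FDR.

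CYP98A8, which makes phenolamides of pollen, was near 0 in WT, at under 1 read over the group as inferred from the fold change, and stood at 0.271 RPKM in hda6, 0.0878 in ldl1/2 and 0.295 in seedlings labelled hda6/ldl1/2. Taking 3 reads over the WT group as the floor, it was at least 24.7-fold higher in hda6 and at least 28.2-fold higher in seedlings labelled hda6/ldl1/2, where the deposited FDR was 0.0435 and 0.0207 in the authors' tables. In ldl1/2 it was at least 7.51-fold higher and did not pass the FDR (0.228, per the authors' deposited table). About 45, 13 and 48 reads carried these levels.

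CYP97C1, a carotene hydroxylase, rose in seedlings labelled hda6/ldl1/2 by 0.40 (FDR 0.00781), per the authors' deposited table, while CYP97A3 and CYP97B3 stood at 0.23 and 0.13 and did not pass. Its levels were 13.9 RPKM in WT, 15.8 in hda6, 14.6 in ldl1/2 and 16.7 in seedlings labelled hda6/ldl1/2, where 4 of 5 mesophyll genes rose as well, and their part in the result was not tested.

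Of the partners that pass electrons to P450 enzymes, the main reductase gene ATR1 stood at 59.3 RPKM in WT, 52.1 in hda6, 60.2 in ldl1/2 and 41.3 in seedlings labelled hda6/ldl1/2, and fell in the last by 0.39 (FDR 0.00795), per the authors' deposited table. The second reductase gene ATR2 did not pass the FDR in any comparison. The cytochrome b5 gene CB5-C stood at 54.6, 57.2, 28.1 and 71.2 RPKM, lowest in ldl1/2 (-0.99, FDR listed as 0) and highest in seedlings labelled hda6/ldl1/2 (0.52, FDR 0.000136), per the authors' deposited tables.

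**Figure D4:**
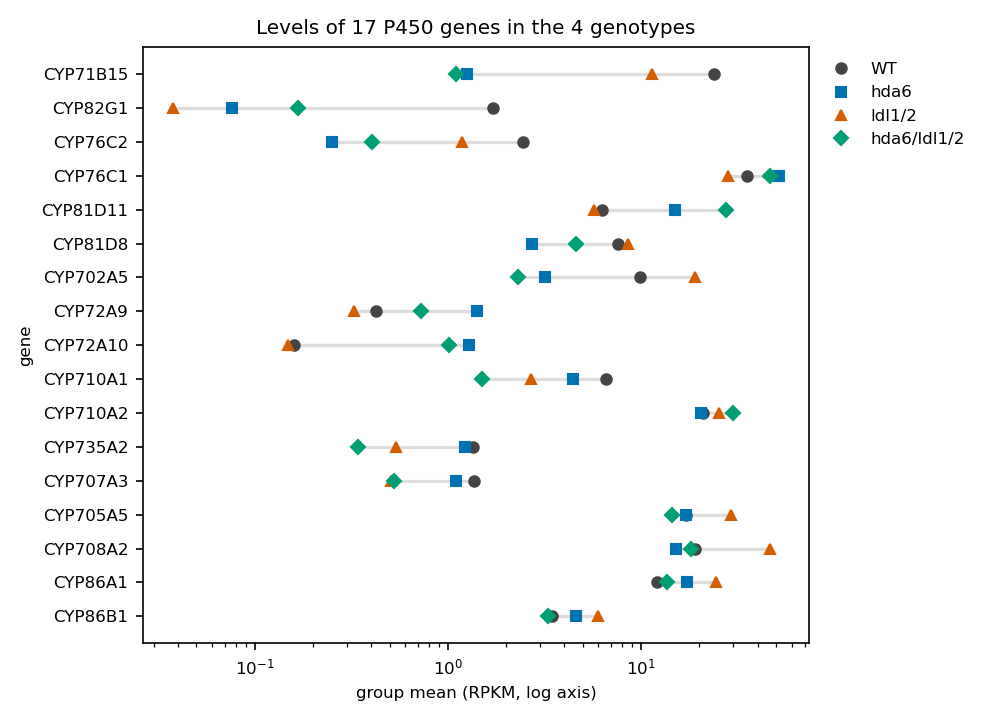
Group mean of 17 P450 genes in RPKM (log axis), rebuilt from the deposited tables, in WT (circles), hda6 (squares), ldl1/2 (triangles) and seedlings labelled hda6/ldl1/2 (diamonds); each genotype is 1 mean without an error. CYP71B15 lies at 23.9 RPKM in WT and 1.1 to 1.25 in hda6 and seedlings labelled hda6/ldl1/2, while CYP705A5, CYP708A2, CYP86A1 and CYP86B1 are highest in ldl1/2.

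CYP702A5 and CYP708A3, of no role list, and CYP702A6, of the triterpene and volatile terpene list, also changed. CYP702A5 stood at 9.87 RPKM in WT, 3.17 in hda6, 18.9 in ldl1/2 and 2.31 in seedlings labelled hda6/ldl1/2. It fell in hda6 by 1.58 (FDR 2.11e-14), rose in ldl1/2 by 0.91 (FDR 2.83e-05) and fell in seedlings labelled hda6/ldl1/2 by 1.96 (FDR listed as 0), per the authors' deposited tables. Its neighbour CYP702A6 stood at 0.767 RPKM in WT and 0.131 in hda6, and fell in hda6 by 2.49 (FDR 0.00017), per the authors' deposited table. CYP708A3 rose in all 3, with levels of 13.8 RPKM in WT, 17.4 in hda6, 20.5 in ldl1/2 and 25.0 in seedlings labelled hda6/ldl1/2.

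The CYP705A subfamily, with 22 members, had 4 risen and none fallen in hda6, 1 risen and 1 fallen in ldl1/2, and 4 risen and 1 fallen in seedlings labelled hda6/ldl1/2. At the shares of all genes given above, 4.05% rose and 3.58% fell in hda6, 3.75% and 3.20% in ldl1/2, and 8.61% and 6.40% in seedlings labelled hda6/ldl1/2, and with so few genes nothing is read from these counts. CYP705A13 stood at 1.51 RPKM in WT, 4.69 in hda6, 1.36 in ldl1/2 and 2.85 in seedlings labelled hda6/ldl1/2, and rose by 1.69 (FDR 2.11e-14) in hda6 and by 1.05 (FDR 1.67e-05) in seedlings labelled hda6/ldl1/2, per the authors' deposited tables. CYP705A19, the highest of these, stood at 29.4, 43.7, 30.4 and 41.4 RPKM and rose by 0.63 in both (FDR 2.53e-06 and 1.66e-06), per the authors' deposited tables. The CYP71B subfamily, with 27 members, had none risen and 7 fallen in hda6, among them CYP71B15, 2 risen and 1 fallen in ldl1/2, and none risen and 4 fallen in seedlings labelled hda6/ldl1/2, to be set beside the same shares.

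Position was then compared with change. Counting members with at most 1 gene between them as neighbours, 72 pairs joined 107 members, and 14 clusters of 3 or more held 65. In hda6 both genes of a pair rose in 1 pair, both fell in 4 and they moved in opposite directions in 2, while only 1 of the 2 genes was called in 20 pairs. In ldl1/2 these counts were 1, 1, 2 and 8, and in seedlings labelled hda6/ldl1/2 1, 2, 3 and 22. No matching counts over neighbouring pairs of all genes stand beside them, so nothing is read from these pairs.

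The CYP71B cluster on chromosome 3 (TAIR10.1, chr3:9568280-9599988) held 8 members. In hda6 5 of them fell, CYP71B19, CYP71B20, CYP71B23, CYP71B3 and CYP71B24, by 0.37 to 0.96, per the authors' deposited table. Over all genes 3.58% fell in hda6. Of the 14 clusters this one held the most genes that fell in hda6. Neighbouring copies are not independent, so nothing is read from this count. CYP71B23 stood at 10.3 RPKM in WT, 5.12 in hda6, 10.7 in ldl1/2 and 6.09 in seedlings labelled hda6/ldl1/2. In seedlings labelled hda6/ldl1/2 CYP71B23 and CYP71B3 fell, and in ldl1/2 CYP71B19 rose by 0.48 (FDR 0.00945), per the authors' deposited table. The CYP71B group that follows it (chr3:9630128-9648658), with 6 members, had none called in any comparison.

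In the CYP72A cluster (chr3:4912324-4939871) only CYP72A9 and CYP72A10 of 8 members were called in any comparison, beside 20.7% of all genes. CYP72A9, which oxidises gibberellins, stood at 0.427 RPKM in WT, 1.41 in hda6, 0.327 in ldl1/2 and 0.722 in seedlings labelled hda6/ldl1/2, and CYP72A10 at 0.159, 1.29, 0.148 and 1.01 RPKM. CYP72A10 rose by 3.08 (FDR 2.22e-08) and 2.79 (FDR 5.12e-07) in hda6 and seedlings labelled hda6/ldl1/2, and CYP72A9 by 1.78 (FDR 3.03e-05) in hda6, with 0.89 (FDR 0.111) in seedlings labelled hda6/ldl1/2, per the authors' deposited tables. The neighbour CYP72A8, a highly expressed member at 62.3 RPKM in WT, 44.8 in hda6, 85.3 in ldl1/2 and 66.6 in seedlings labelled hda6/ldl1/2, did not pass the FDR in any comparison. For reads shared by near-identical copies, the counting was not given in the sources used here. The values of close tandem copies are therefore uncertain where they share sequence.

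**Figure D5:**
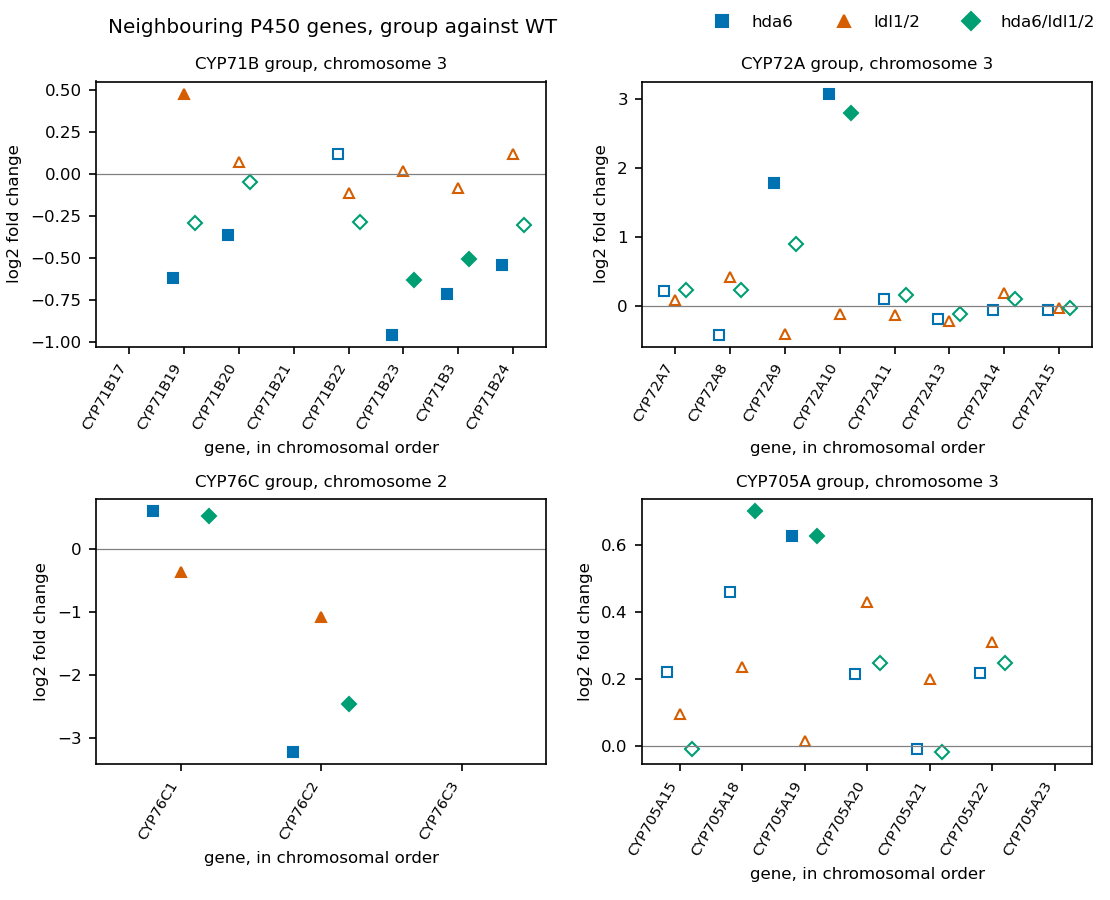
Deposited log2 fold change against WT of P450 genes in 4 chromosomal groups, in order along the chromosome, for hda6 (squares), ldl1/2 (triangles) and seedlings labelled hda6/ldl1/2 (diamonds); filled symbols passed the deposited FDR of 0.05, and comparisons with both means under 0.1 RPKM are not drawn. In the CYP71B group 5 squares are filled below 0, in the CYP72A group the filled symbols are CYP72A9 (1.78) and CYP72A10 (3.08 and 2.79), and CYP76C1 and CYP76C2 lie on opposite sides of 0 in hda6.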

How the data were processed

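RNA-seq of 4 genotypes was used, with 1 GEO sample each. The deposited files are 3 tables of the authors' own comparisons with WT, each giving the larger group mean, a log2 fold change with its p-value, and an FDR. Bowtie and the TAIR10 build come from the submitters' processing notes, and the test was not given in the sources used here. The authors' deposited means are in RPKM, a unit read from the values because the headers do not name it, and the log2 values and p-values are the authors' deposited ones. Their lowest means fell on 3 whole-read positions in WT (146 to 155 M reads over the group) and on 2 in each other group (80.4 to 98.8 M reads), so the tables appear to average several libraries per genotype. What those libraries were is not given, and the authors' p-values may measure technical spread.

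The other group mean was computed from the larger mean and the fold change, after removing a constant between the log2 RPKM ratio and the deposited log2 value (0.06 in hda6, -0.03 in ldl1/2, 0.13 in seedlings labelled hda6/ldl1/2). WT means rebuilt from the 3 tables differed by at most 0.0406 in log2 over the 18484 genes above 1 RPKM. Genes at lower levels were not part of this check. No test of a new kind was run; "rose", "fell" and "changed" mean a deposited FDR under 0.05 over all genes. Implied standard errors are the log2 fold change over the normal deviate of the authors' p. Folds against a mean under 0.5 reads are bounds against 3 reads over the group, for counting error only.

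Genes were matched by position to RefSeq TAIR10.1, which gave 33223 genes and all 201 members. Named genes were, in each comparison, the 8 highest and 8 lowest members past the FDR at 1 RPKM or more. To these came all changed members of 13 role lists with the 2 highest of each, the 6 highest members, and 5 per direction that differed most between hda6 and ldl1/2, 61 in all. Other members named in the text were chosen after their values were seen. A further window before a gene start is not reported here. Members and lists were chosen with earlier results of these data known. Alternatives covered the FDR, the level filter, the size rule, a pseudocount of 1, recentring, an RPKM ratio, a mean over the 4 genotypes and the 7 genes left out. The scripts used Python 3.11.15, pandas 2.3.3, numpy 2.4.6, scipy 1.17.1 and matplotlib 3.10.9, and were tested on simulated data.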

Additional observations from a re-analysis of the deposited data

How the results depend on the processing

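Shares over all genes under the settings of this paragraph, other than the mean over the 4 genotypes, are not given here. The counts therefore show how the members move with the setting, and not whether they differ from all genes. With an FDR under 0.01, 10 members rose in hda6, 6 fell in ldl1/2 and 17 fell in seedlings labelled hda6/ldl1/2. Counts by the size rule (log2 fold change at or beyond 1, at least 1 RPKM) depended on the level filter and on the size. From 5 RPKM on, 1 was higher and 3 lower in hda6, 2 lower in ldl1/2, and 1 higher and 3 lower in seedlings labelled hda6/ldl1/2. With no filter the counts were 16 higher and 27 lower, 12 and 26, and 20 and 27 in the 3 comparisons. These take in members near 0 reads, such as CYP71A18, with 0.241 reads inferred in hda6. At 0.58 in log2 they were 14 higher and 12 lower in hda6, 13 higher in ldl1/2, and 16 higher and 19 lower in seedlings labelled hda6/ldl1/2. A pseudocount of 1 left 2 higher in hda6, 3 lower in ldl1/2, and 1 higher and 5 lower in seedlings labelled hda6/ldl1/2, where the median became -0.071. A mean over the 4 genotypes of at least 1 RPKM, chosen after seeing the data, left 3 higher in hda6, 4 lower in ldl1/2 and 6 lower in seedlings labelled hda6/ldl1/2. Recentring gave 2 higher in ldl1/2. The plain RPKM ratio, also chosen after seeing the data, again gave 2 higher in ldl1/2 and a median of -0.095 in seedlings labelled hda6/ldl1/2, where it moved the median of all genes to -0.137. The other counts and medians stayed within 1.5 times or 0.1 in log2, and those with the 7 genes put back all did.

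For the 61 named genes in 3 comparisons, recentring left 180 values alike, the RPKM ratio 170 and the pseudocount 148, and no called direction reversed. Of the values under the pseudocount, 25 fell short of the size rule. No paired analysis was possible because each genotype has 1 sample and the tables hold only group means, so no library could be left out. Low levels limit CYP98A8, CYP76C5, CYP86C1, CYP82G1 and CYP71A20, whose lowest groups held under 12 reads, and the cause of the differences between settings was not tested.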

Other observations

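Some members outside the role lists changed in seedlings labelled hda6/ldl1/2 alone, and were chosen after their values were seen. CYP87A2 stood at 4.09 RPKM in WT, 4.29 in hda6, 4.18 in ldl1/2 and 1.78 in seedlings labelled hda6/ldl1/2, where it fell by 1.07 (FDR 0.000115), per the authors' deposited table. CYP71A23 stood at 0.272, 0.507, 0.609 and 0.995 RPKM in the same order and rose there by 2.00 (FDR 2.92e-05), per the authors' deposited table. Its cluster neighbour CYP71A25 stood at 11.7, 17.2, 13.1 and 20.3 RPKM and rose there by 0.93 (FDR 3.5e-13) and in hda6 by 0.61 (FDR 1.26e-05), per the authors' deposited tables.

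Neighbours on chromosome 4 also parted in ldl1/2. CYP71A19 stood at 3.78 RPKM in WT and 6.33 in ldl1/2 and rose there by 0.71 (FDR 0.00119), while CYP71A20 stood at 0.315 RPKM in WT and 0.0566 in ldl1/2, on about 9 reads, and fell by 2.51 (FDR 0.0309), per the authors' deposited table. CYP89A9, which modifies chlorophyll breakdown products, stood at 16.6 RPKM in WT and 10.6 in hda6 and fell there by 0.58 (FDR 0.00646), per the authors' deposited table.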
